A study of Mus musculus with 16 samples.

Results

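The genes described here were taken, by their symbols, as those of the nuclear-encoded subunits of the oxidative phosphorylation complexes. They were the rows of the count table whose symbol begins with Nduf (Ndufaf assembly factors left out), Uqcr, Cox4i, Cox5, Cox6, Cox7, Cox8 or Atp5, and the 4 genes Sdha, Sdhb, Sdhc and Sdhd, without the 9 rows whose symbol holds a hyphen. This gave 87 of 29695 rows: 41 subunits of complex I, 4 of complex II, 8 of complex III, 17 of complex IV and 17 of complex V. The reference used here gives a coding sequence for 83 of the 87, so the symbol alone does not show that a row encodes a subunit. Complexes were assigned by the start of the symbol alone. Ndufa4 and its paralog Ndufa4l2 are therefore counted in complex I by name, which does not establish the complex their proteins belong to. The filter on low counts kept 85 of them. It removed Cox6a2, the heart and skeletal muscle isoform of subunit 6a, and Cox6c2, both subunits of complex IV. Cox6a2 had 139 reads in KO saline replicate 3 and at most 7 in any other library. Cox6c2 had 41 reads in KO saline replicate 1 and between 1 and 15 elsewhere.

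RNA was sequenced from the suprarenal aorta of male mice in 4 groups of 4 libraries. The groups were wild-type C57BL/6 mice given saline (WT saline), wild-type mice given angiotensin II (WT AngII), Vamp8-/- mice given saline (KO saline) and Vamp8-/- mice given angiotensin II (KO AngII). AngII, a peptide hormone that raises blood pressure, was infused at 1000 ng/kg/min for 5 days from an osmotic minipump. Vamp8 encodes a membrane fusion protein of endosomes and lysosomes. The sources used here do not describe the knockout allele. Per the labels, the vessels were perfused and cleared of surrounding tissue, and aortae with intramural bleeding or overt pathology were left out, so each group holds only vessels without such damage. The sources used here give no age of the mice.

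Oxidative phosphorylation takes place in the inner mitochondrial membrane. Complex I oxidises NADH and complex II oxidises succinate, both pass electrons through ubiquinone to complex III, cytochrome c carries them to complex IV, and complex IV reduces oxygen to water. The proton gradient built by complexes I, III and IV drives complex V, the ATP synthase. Most subunits are encoded in the nucleus, and a smaller set, including the catalytic cores of complex IV and the membrane arm of complex I, is encoded in mitochondrial DNA. Smooth muscle, the main cell of the aortic wall, holds a modest number of mitochondria, while brown adipocytes, which burn fuel to make heat, are packed with them.

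Library totals ran from 13284804 to 21643548 reads, the largest being KO saline replicate 1. Levels are CPM, read counts brought to a common library total, after TMM scaling, which corrects for differences in library composition. Vamp8 stood at 45.9, 51.9, 57.2 and 52.5 CPM in the WT saline libraries, 55.8, 52.3, 60.9 and 54.2 CPM in WT AngII, 53.3, 31.4, 26.3 and 24.9 CPM in KO saline, and 26.7, 24.6, 26.0 and 14.1 CPM in KO AngII. The other 7 KO libraries lay below all 8 WT libraries, without reaching 0. The library labelled KO saline replicate 1 lay in the wild-type range for the targeted gene. Medians of differences that involve KO saline are given with and without it for the subunits and the gene lists of their pathways. Differences of single subunits are given with it, unless another fit is named. The smooth muscle genes Acta2 (3249 to 13060 CPM) and Myh11 (1444 to 5889 CPM) were detected in every library. So was Ucp1, the uncoupling protein that defines brown adipocytes, at 145 to 4576 CPM. Skeletal muscle markers summed to 838 CPM in KO saline replicate 3 against 5.12 to 30.2 CPM in the other libraries, and sympathetic and chromaffin markers to 4196 CPM in KO AngII replicate 4 against 26.8 to 278 CPM. The table also listed 2725 rows without a symbol, and all 2725 had 0 reads in the 8 WT libraries, so any way in which the counting of reads differed between WT and KO cannot be told apart from the genotype itself. No subunit tested had 0 reads throughout a genotype.

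Most of the 85 subunits moved together from library to library, and the range within each group exceeded the distance between any pair of group means. Their summed level was 9027, 30060.0, 15920.0 and 7678 CPM in the WT saline libraries, 18815, 23131, 9803 and 11848 CPM in WT AngII, 49785, 18499, 20764 and 17107 CPM in KO saline, and 27266, 12711, 14847 and 11457 CPM in KO AngII. The library labelled KO saline replicate 1 was the highest of all 16, WT saline replicate 4 the lowest, and every pair of groups overlapped. The mean log2 CPM over the subunits was 6.64 ± 0.78, 6.79 ± 0.51, 7.44 ± 0.71 and 6.81 ± 0.50 in WT saline, WT AngII, KO saline and KO AngII (SD, n = 4 each).

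**Figure D1:**
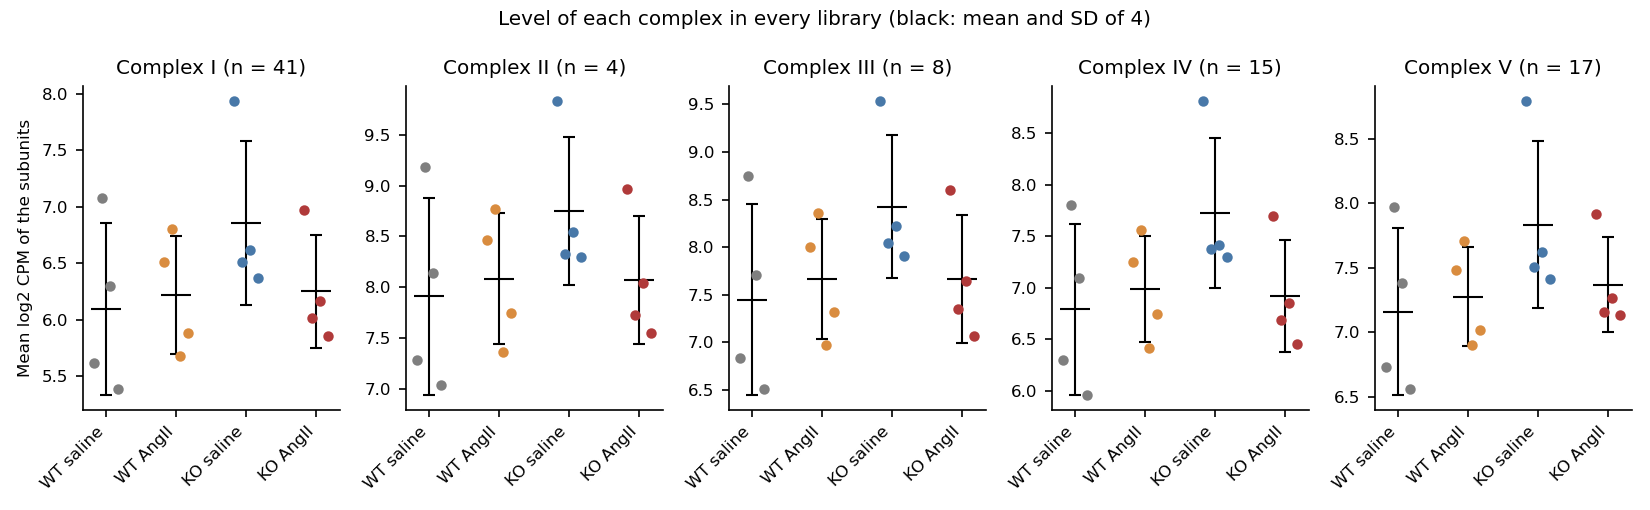
Mean log2 CPM of the tested subunits of each complex in every library (vertical axis, log2 scale), with points for the 4 libraries of each group and black marks for their mean and SD. In all 5 panels the library labelled KO saline replicate 1 is the highest point, and KO saline has the highest group mean, from 6.86 for complex I to 8.75 for complex II.

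In each complex KO saline had the highest group mean and WT saline the lowest. Complex I, the NADH dehydrogenase, had a mean log2 CPM of 6.10 ± 0.76, 6.22 ± 0.52, 6.86 ± 0.73 and 6.25 ± 0.50 in WT saline, WT AngII, KO saline and KO AngII (SD, n = 4 each). Ndufv1, the subunit that takes electrons from NADH, stood at 125, 562, 234 and 101 CPM in the WT saline libraries, 322, 402, 148 and 179 CPM in WT AngII, 777, 279, 364 and 289 CPM in KO saline and 492, 188, 248.7 and 163 CPM in KO AngII. The library labelled KO saline replicate 1 was the highest, and the groups overlapped. Complex II, the succinate dehydrogenase, had a mean log2 CPM of 7.91 ± 0.97, 8.09 ± 0.65, 8.75 ± 0.73 and 8.07 ± 0.63 in the same order of groups. Sdha, its flavoprotein, stood at 366, 1661, 749.6 and 343 CPM in the WT saline libraries, 994, 1189, 398 and 524 CPM in WT AngII, 1840.4, 768, 983 and 799 CPM in KO saline and 1264, 519, 758 and 505 CPM in KO AngII. WT saline replicate 2 lay close to the highest KO saline library for this gene, well above the other 3 WT saline libraries.

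Complex III, which hands electrons to cytochrome c, had a mean log2 CPM of 7.45 ± 1.00, 7.66 ± 0.63, 8.43 ± 0.75 and 7.66 ± 0.67 in WT saline, WT AngII, KO saline and KO AngII (SD, n = 4 each). Uqcrfs1, its iron-sulfur protein, stood at 124, 577, 254 and 92.4 CPM in the WT saline libraries, 332, 427, 129 and 219.5 CPM in WT AngII, 1138, 388, 418 and 295 CPM in KO saline and 562, 198, 240.0 and 166 CPM in KO AngII. Complex IV, cytochrome c oxidase, had a mean log2 CPM of 6.79 ± 0.83, 6.99 ± 0.51, 7.73 ± 0.73 and 6.92 ± 0.54 in that order. Both complexes peaked in the library labelled KO saline replicate 1 and overlapped between all groups. Cox4i1, the widely expressed form of subunit 4, stood at 334, 1003, 593 and 289.9 CPM in the WT saline libraries, 669, 768, 332 and 419 CPM in WT AngII, 1866, 727, 747 and 580.0 CPM in KO saline and 967, 473, 523 and 464 CPM in KO AngII. Complex V had a mean log2 CPM of 7.16 ± 0.65, 7.28 ± 0.38, 7.83 ± 0.65 and 7.37 ± 0.37 in WT saline, WT AngII, KO saline and KO AngII (SD, n = 4 each). Atp5b, the catalytic beta subunit of the ATP synthase, stood at 784, 3399, 1593 and 705 CPM in the WT saline libraries, 1904, 2520.3, 919.5 and 1090.3 CPM in WT AngII, 4115, 1762, 2218 and 1754 CPM in KO saline and 3094, 1352, 1733 and 1158 CPM in KO AngII. Of the 5 complexes, complex V had the narrowest spread in WT saline and complex III the widest.

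Levels were compared between genes per length, as RPKM (the CPM divided by the exon length in kilobases). The exon length counts all annotated exons of a gene together. It can exceed the length of the transcripts present, so the order of genes depends on the annotation. The median over the 16 libraries ran in complex I from 2.18 RPKM for Ndufs6b to 338 RPKM for Ndufa1, a small membrane-arm subunit. Complex II ran from 67.8 RPKM for Sdhc, a membrane anchor, to 185 RPKM for Sdha. Complex III ran from 81.8 RPKM for Uqcrc1 to 299 RPKM for Uqcr10. Complex IV had the widest range, from 3.19 RPKM for Cox6b2 to 1165 RPKM for Cox8b, the form of subunit 8 found in heart, skeletal muscle and brown fat. Complex V ran from 7.85 RPKM for Atp5g1, a gene for the c subunit of the rotor, to 412 RPKM for Atp5b.

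AngII against saline in wild type asks how the infusion changed the normal aorta. None of the 85 subunits changed at an adjusted p under 0.05 in edgeR's quasi-likelihood test with Benjamini-Hochberg adjustment over 15984 genes, where 0.444% of all genes tested were called. DESeq2 and limma's voom also called 0. At an unadjusted p under 0.05, 2 subunits were higher (2.353%, against 5.58% of all genes) and 0 lower (against 3.22%). The median log2 fold change of the subunits was 0.01, against -0.01 over all genes, and 48 of 85 had a positive sign. The complex medians ran from -0.01 in complex V to 0.05 in complex III. The 2 subunits with an unadjusted p under 0.05 were Ndufa4l2 (log2 fold change 0.67 ± 0.22 SE, adjusted p = 0.304 in edgeR's quasi-likelihood test) and Cox6b2 (0.75 ± 0.28 SE, adjusted p = 0.399). The member of complexes II, III and V with the smallest p was Sdhd (0.05 ± 0.55 SE), Uqcrq (0.17 ± 0.55 SE) and Atp5md (0.20 ± 0.49 SE), in that order. The median ran from -0.20, without WT AngII replicate 2, to 0.51, without WT saline replicate 2, when single libraries were left out.

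AngII against saline in the knockout asks the same of the Vamp8-/- aorta. None of the 85 subunits changed at an adjusted p under 0.05 in edgeR's quasi-likelihood test, where 0.0501% of all genes were called. At an unadjusted p under 0.05, 14 subunits were lower (16.47%, against 7.39% of all genes) and 0 higher (against 11.8%): 7 in complex I, 1 in complex III, 3 in complex IV and 3 in complex V. The median log2 fold change was -0.71 over the subunits and 0.02 over all genes, and 84 of 85 had a negative sign. By complex the medians were -0.68 (I), -0.78 (II), -0.80 (III), -0.75 (IV) and -0.62 (V). Without the library labelled KO saline replicate 1 the median was -0.16, with complex medians from -0.20 (IV) to -0.08 (V). In that fit 3 subunits were lower at an unadjusted p under 0.05, against 5.30% of all genes. At the other end, the median was -1.03 without KO AngII replicate 1.

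Of the subunits with the smallest p in the knockout, 3 were low-abundance isoforms. Cox4i2, the oxygen-sensitive form of subunit 4 known from lung and vessel, stood at 6.78, 5.09, 4.84 and 3.84 CPM in the WT saline libraries, 3.98, 5.95, 4.68 and 4.52 CPM in WT AngII, 10.1, 8.37, 9.28 and 13.4 CPM in KO saline and 4.97, 5.90, 5.47 and 2.51 CPM in KO AngII. All 4 KO saline libraries lay above the other 12. Its log2 fold change under AngII in the knockout was -1.12 ± 0.26 SE (adjusted p = 0.106 in edgeR's quasi-likelihood test). DESeq2 called Cox4i2, Ndufa4l2 and Cox6b2 lower (4.64% of all genes called), and limma's voom with quality weights called Cox4i2 alone (3.51% of all genes called). In the other complexes the smallest p belonged to Uqcrq (-1.21 ± 0.56 SE, adjusted p = 0.253), Sdhc (-0.80 ± 0.41 SE, adjusted p = 0.297) and Atp5g2 (-0.75 ± 0.26 SE, adjusted p = 0.172), a subunit of complex III, a membrane anchor of complex II and a c-subunit gene of complex V.

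**Figure D2:**
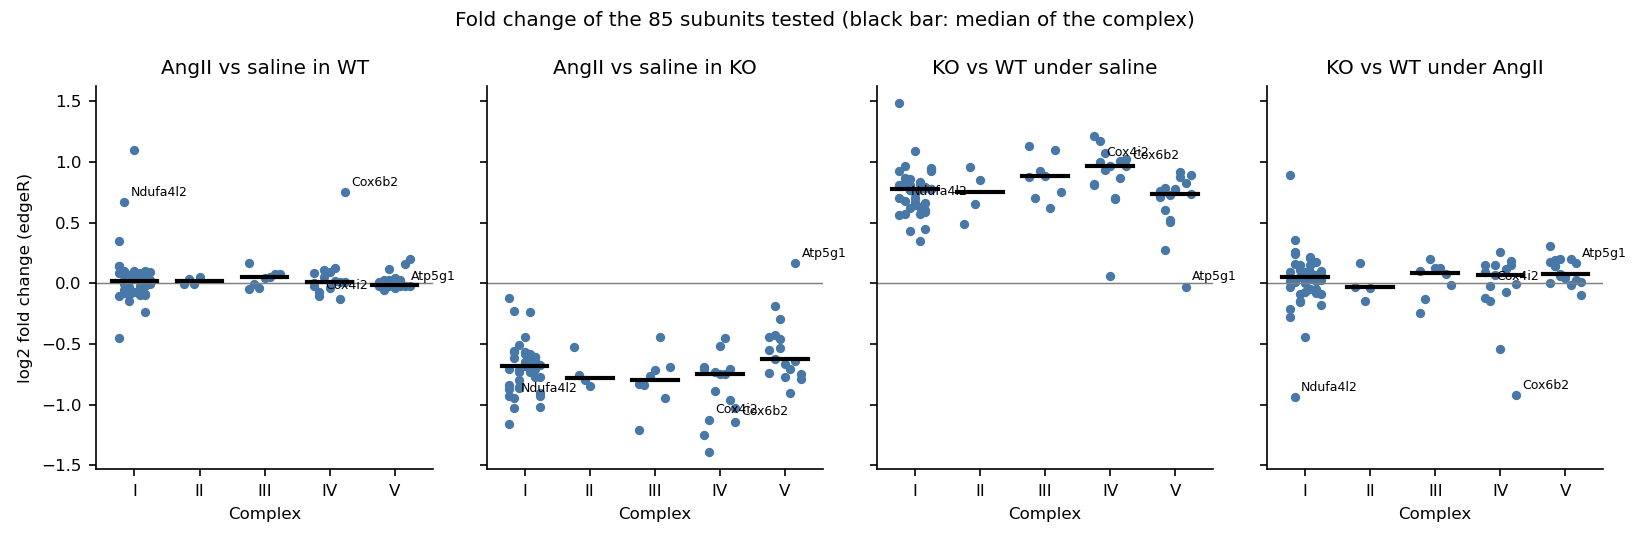
Log2 fold change of each of the 85 subunits tested (points, edgeR) by complex in the 4 pairwise comparisons, with a black bar at the median of each complex. The points of AngII against saline in the knockout lie below 0 and those of KO against WT under saline above 0, with Atp5g1 the exception in each. The points of AngII in wild type and of KO against WT under AngII have medians near 0 in every complex.

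KO against WT under saline compares the genotypes without AngII, and it shares the KO saline libraries with the comparison above. None of the 85 subunits changed at an adjusted p under 0.05 in edgeR's quasi-likelihood test, where 3.01% of all genes were called. At an unadjusted p under 0.05, 15 were higher (17.65%, against 10.1% of all genes) and 0 lower (against 11.7%): 8 in complex I, 3 in complex IV and 4 in complex V. The median log2 fold change was 0.78 over the subunits and 0.05 over all genes, with a positive sign in 84 of 85. By complex the medians were 0.78 (I), 0.75 (II), 0.88 (III), 0.97 (IV) and 0.74 (V).

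Core subunits carried wide errors in this comparison. Cox4i1 had a log2 fold change of 0.82 ± 0.45 SE (adjusted p = 0.294 in edgeR's quasi-likelihood test), Uqcrfs1 of 1.10 ± 0.60 SE (adjusted p = 0.292) and Atp5b of 0.60 ± 0.51 SE (adjusted p = 0.485). Isoforms with small errors stood nearer the threshold. The log2 fold change was 1.00 ± 0.26 SE for Cox4i2 (adjusted p = 0.0540 in edgeR's quasi-likelihood test) and 0.72 ± 0.23 SE for Atp5g3, another c-subunit gene (adjusted p = 0.0926). The smallest p in complexes I, II and III belonged to Ndufa4l2 (0.68 ± 0.22 SE, adjusted p = 0.102), Sdhb (0.96 ± 0.56 SE, adjusted p = 0.318) and Uqcrq (1.13 ± 0.56 SE, adjusted p = 0.246). DESeq2 called Cox4i2, Atp5g3 and Cox6b2 higher (8.61% of all genes called). Limma's voom called 10 higher, namely Ndufs3, Ndufb4, Uqcrfs1, Uqcrq, Cox4i2, Cox8a, Cox8b, Atp5g2, Atp5g3 and Atp5j (20.0% of all genes called).

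The size of the KO saline difference depended on single libraries. Without the library labelled KO saline replicate 1 the median was 0.21, with complex medians from 0.17 (II) to 0.29 (IV). In that fit 4 subunits were higher at an unadjusted p under 0.05 (against 6.04% of all genes), 1 was lower (against 10.5%) and 0 were called (against 1.21%). Without WT saline replicate 2, which had the highest subunit levels of its group, the median was 1.26 and 79 of 85 subunits were higher at an unadjusted p under 0.05, against 17.1% of all genes. Cox4i2, Atp5g3 and Uqcrq were called there, where 10.7% of all genes were called. Without both KO saline replicate 1 and KO AngII replicate 4, the median was 0.24 and Cox4i2 was called (adjusted p = 0.0347 in edgeR's quasi-likelihood test, 2.57% of all genes called). Vascular smooth muscle markers moved with this comparison: their median log2 fold change was -0.89, and 6 of 8 were lower at an unadjusted p under 0.05, with 0 called (-0.83 and 2 of 8 without the library labelled KO saline replicate 1). Their part in the result was not tested.

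KO against WT under AngII compares the genotypes in infused mice. Of the 85 subunits, 1 changed in edgeR's quasi-likelihood test, where 2.03% of all genes were called: Ndufa4l2 fell. At an unadjusted p under 0.05, 0 subunits were higher (against 10.3% of all genes) and 2 lower (against 7.64%). The median log2 fold change was 0.06 over the subunits and 0.04 over all genes, with a positive sign in 56 of 85. The complex medians lay between -0.03 (II) and 0.09 (III).

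Ndufa4l2, a paralog of Ndufa4 that is known as a hypoxia-induced and perivascular cell gene, lies at chr10:127514967-127517154 (plus strand, GRCm38). It stood at 25.6, 21.9, 19.0 and 20.6 CPM in the WT saline libraries, 22.5, 27.1, 39.9 and 48.7 CPM in WT AngII, 39.2, 31.4, 26.1 and 42.5 CPM in KO saline and 15.7, 21.1, 17.99 and 17.3 CPM in KO AngII. The 4 KO AngII libraries lay below all WT AngII libraries, and below all KO saline libraries as well. Group means were 21.7 ± 2.80 CPM, 34.6 ± 11.9 CPM, 34.8 ± 7.44 CPM and 18.04 ± 2.29 CPM in the WT saline libraries, WT AngII, KO saline and KO AngII (SD, n = 4 each). Its log2 fold change in KO against WT under AngII was -0.94 ± 0.22 SE (adjusted p = 0.0432 in edgeR's quasi-likelihood test). The call was lost with no filter on low counts (adjusted p = 0.05004), in limma's voom (0.141), with only the 8 libraries compared (0.166), with the replicate number as a block (0.0833), without KO saline replicate 1 and KO AngII replicate 4 (0.0841), and when 1 library was left out in 8 of 16 cases. Across those 16 cases the log2 fold change ran from -1.10 to -0.73 and the adjusted p from 0.0216 to 0.156. The libraries whose removal lost the call were WT AngII replicates 3 and 4, KO saline replicates 2, 3 and 4, and KO AngII replicates 1, 2 and 4. Exons of Ndufa4l2 overlap those of Shmt2 on the opposite strand over 32 bases (2.92% of its exon length), and the sources used here do not give the strand setting of the counting.

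Cox6b2, the testis form of subunit 6b, was the other subunit with an unadjusted p under 0.05 in this comparison. It stood at 3.12, 2.81, 3.54 and 3.53 CPM in the WT saline libraries, 5.01, 4.48, 4.94 and 7.43 CPM in WT AngII, 9.69, 5.69, 3.37 and 6.73 CPM in KO saline and 2.24, 3.00, 3.44 and 2.85 CPM in KO AngII. The KO AngII libraries lay below all WT AngII libraries. Its log2 fold change was -0.92 ± 0.28 SE (adjusted p = 0.0925 in edgeR's quasi-likelihood test). DESeq2 called Ndufa4l2 and Cox6b2 lower (7.77% of all genes called), and limma's voom called Cox7a2l lower (3.63% of all genes called). The smallest p in complexes II, III and V belonged to Sdhc (-0.14 ± 0.41 SE), Uqcrq (-0.25 ± 0.55 SE) and Atp5g3 (0.31 ± 0.23 SE), none of which passed the test. Macrophage markers were lower at an unadjusted p under 0.05 in 7 of 7 cases (median log2 fold change -0.97, 0 called), and their part in the result was not tested.

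The genotype by AngII interaction tests whether the AngII effect differed between knockout and wild type. None of the 85 subunits passed it in edgeR's quasi-likelihood test, where 0.0188% of all genes were called. At an unadjusted p under 0.05, 0 were higher (against 6.61% of all genes) and 3 lower (against 4.61%). The 3 were Ndufa4l2 (-1.62 ± 0.31 SE, adjusted p = 0.185), Cox6b2 (-1.89 ± 0.40 SE, adjusted p = 0.357) and Cox4i2 (-1.02 ± 0.37 SE, adjusted p = 0.411), again in edgeR's quasi-likelihood test. The median was -0.72 over the subunits and 0.01 over all genes. When single libraries were left out it ran from -1.21, without WT saline replicate 2, to -0.18, without the library labelled KO saline replicate 1. DESeq2 called Ndufa4l2 (adjusted p = 0.00238) and Cox6b2 (adjusted p = 0.00588), with 0.613% of all genes called. The smallest p in complexes II, III and V belonged to Sdhc (-0.80 ± 0.58 SE), Uqcrq (-1.38 ± 0.78 SE) and Atp5g2 (-0.72 ± 0.36 SE).

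The level of the subunits followed brown adipocyte genes across the 16 libraries. The brown adipocyte score is the mean log2 CPM of 13 marker genes, Ucp1 and Cidea among them, none of them a subunit, with its lowest value, 4.30, in WT saline replicate 4 and its highest, 6.98, in KO saline replicate 1. Summed, the markers stood at 631 to 5231 CPM in the WT saline libraries, 1075 to 3192 CPM in WT AngII, 1838 to 7611 CPM in KO saline and 723 to 3436 CPM in KO AngII, and no marker was at 0 in every library. In bulk RNA, fewer cells of a type and less RNA per cell cannot be told apart. Both measures come from the same libraries and share their scaling, and both differed from sample to sample within groups.

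Over the 85 subunits the median Pearson r with the score was 0.928 (16 libraries), 0.932 without WT saline replicate 4 and the library labelled KO saline replicate 1, which lay farthest from the median score, and 0.939 within groups. An r of at least 0.9 was found for 63 of 85 subunits (74.1%), against 2.85% of all genes tested, whose median r was -0.09. By complex the median r was 0.926 (I, 29 of 41 at 0.9 or more), 0.957 (II, 4 of 4), 0.960 (III, 8 of 8), 0.928 (IV, 11 of 15) and 0.906 (V, 11 of 17). Over this family of 85 relations, 82 had an adjusted permutation p under 0.05 by Pearson's r and 82 by Spearman's rho. For 74 the Pearson p was 1e-05, the smallest that 100000 permutations can give. The permutations shuffled all 16 libraries without regard to group. The share of all genes tested with such a permutation p was not computed, so these counts have no background beside them.

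Cox7a1 and Cox8b, tissue isoforms of complex IV, had the widest ranges of the 85 subunits. Cox8b stood at 132, 836, 416 and 78.6 CPM in the WT saline libraries, 496, 658, 157 and 242 CPM in WT AngII, 1755, 576, 646 and 422 CPM in KO saline and 780.0, 209, 276 and 165 CPM in KO AngII, a 22.3-fold range. Cox7a1, the form of subunit 7a found in muscle and brown fat, stood at 26.8, 192, 96.6 and 18.6 CPM in the WT saline libraries, 93.2, 143, 30.7 and 50.9 CPM in WT AngII, 459, 86.0, 115 and 91.2 CPM in KO saline and 162, 36.8, 63.9 and 24.3 CPM in KO AngII, a 24.6-fold range. The median range over the 85 subunits was 6.51-fold. Pearson's r with the score was 0.97 for Cox8b and 0.98 for Cox7a1 (Spearman's rho 0.99 and 0.98).

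**Figure D3:**
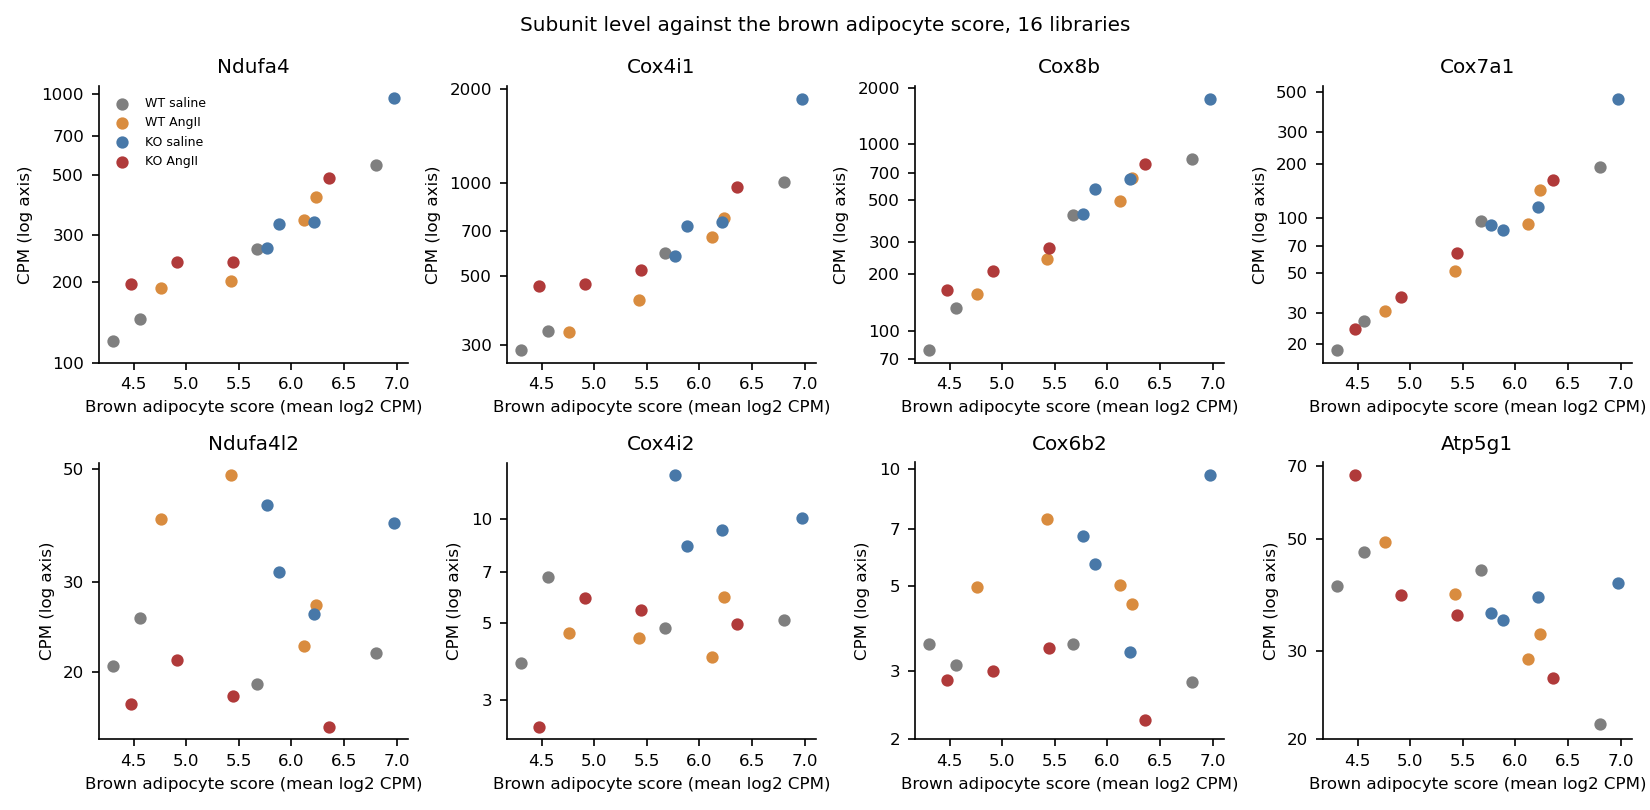
CPM of 8 subunits (vertical axis, log scale) against the brown adipocyte score (horizontal axis, mean log2 CPM) in the 16 libraries, coloured by group. Strongly related genes such as Cox7a1 (r = 0.98) increase along the score, Ndufa4l2 (r = 0.13) shows no clear slope and Atp5g1 (r = -0.70) declines.

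Only 4 of 85 subunits had an r below 0.5, singled out after their values were seen. They were Cox4i2 (0.46, rho 0.49), Cox6b2 (0.27, rho 0.11), Ndufa4l2 (0.13, rho 0.14) and Atp5g1. Over all 16 libraries, Atp5g1 was the only subunit of the 85 with a negative r: -0.70 with rho -0.68 (adjusted permutation p = 0.00212 and 0.00527). Its r was -0.88 without the 2 farthest libraries and -0.77 within groups. On these last 2 measures Ndufa4l2 (-0.10 and -0.36) and Cox6b2 (-0.009 and -0.11) were negative as well. Atp5g1 stood at 47.0, 21.5, 43.3 and 40.3 CPM in the WT saline libraries, 28.9, 32.4, 49.2 and 38.9 CPM in WT AngII, 40.8, 34.6, 38.4 and 35.6 CPM in KO saline and 26.4, 38.7, 35.3 and 67.0 CPM in KO AngII. The 3 c-subunit genes of complex V thus stood at r = -0.70 for Atp5g1, 0.64 for Atp5g3 and 0.82 for Atp5g2, although their mature proteins are known to be identical.

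The promoters of a few of these genes are shown because their subunits span the range from the closest to the reverse relation with the score. Each is the 250 bases upstream of the RefSeq gene start (assembly GRCm38.p6), 5′ to 3′, with matches to 4 motifs in capitals: GCATGCGC (NRF1), CCGGAAG (GABPA), AAGGTCA (ESRRA) and ACGTG (HIF), searched on both strands. Cox7a1 is at chr7:30183921-30184170 (plus strand), Cox8b at chr7:140900447-140900696 (minus strand), Cox6a1, the widely expressed partner of Cox6a2, at chr5:115348959-115349208 (minus strand) and Atp5g1 at chr11:96075632-96075881 (minus strand).
Cox7a1: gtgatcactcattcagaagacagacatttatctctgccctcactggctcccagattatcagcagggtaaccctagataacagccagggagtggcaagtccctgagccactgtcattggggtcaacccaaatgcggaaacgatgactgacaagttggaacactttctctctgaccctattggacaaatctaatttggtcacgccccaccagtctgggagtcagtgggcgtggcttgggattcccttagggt
Cox8b: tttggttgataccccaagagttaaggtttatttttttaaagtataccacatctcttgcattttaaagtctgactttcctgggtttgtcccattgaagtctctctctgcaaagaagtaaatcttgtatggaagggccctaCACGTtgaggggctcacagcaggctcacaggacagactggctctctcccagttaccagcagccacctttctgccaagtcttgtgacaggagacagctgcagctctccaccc
Cox6a1: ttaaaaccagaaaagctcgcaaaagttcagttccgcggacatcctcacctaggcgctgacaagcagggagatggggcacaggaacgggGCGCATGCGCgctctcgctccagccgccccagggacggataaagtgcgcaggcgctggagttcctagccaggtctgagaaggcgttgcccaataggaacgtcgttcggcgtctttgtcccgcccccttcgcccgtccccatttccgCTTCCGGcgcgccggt
Atp5g1: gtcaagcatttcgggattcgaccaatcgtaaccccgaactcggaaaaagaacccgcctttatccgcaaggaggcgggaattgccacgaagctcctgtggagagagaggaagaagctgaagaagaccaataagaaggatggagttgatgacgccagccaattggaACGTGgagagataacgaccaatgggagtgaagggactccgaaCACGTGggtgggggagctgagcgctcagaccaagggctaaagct
Cox7a1 has no match and Cox8b a single HIF match. Cox6a1 (r = 0.95 with the score) has overlapping NRF1 matches on both strands and a GABPA match, and Atp5g1 has 3 HIF matches, of which the last 2 overlap on opposite strands.

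Promoters were found for 69 of the 87 subunits and 27025 genes in all. Among those not matched were Atp5a1, Atp5mpl, Cox4i1, Cox4i2, Cox6a2, Cox6c, Cox6c2, Ndufa2, Ndufa4l2, Ndufb4c, Ndufb9, Ndufs1, Ndufs6b, Sdhc, Uqcrb, Uqcrc2 and Uqcrq. The NRF1 letters were in 11.6% of subunit promoters (8 of 69) against 2.56% of all, the GABPA letters in 17.4% (12) against 7.83%, the ESRRA letters in 7.25% (5) against 4.70%, and the HIF letters in 21.7% (15) against 18.5%. A match is a description of letters in this window.

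With the brown adipocyte score added to the model as a covariate, the median log2 fold change of the subunits was -0.09 for AngII in wild type, 0.06 for AngII in the knockout, 0.15 for KO against WT under saline, 0.32 for KO against WT under AngII and 0.15 for the interaction. Subunits were called only for KO against WT under AngII, where 5.67% of all genes were called. In that fit Ndufs1 (0.52 ± 0.12 SE, adjusted p = 0.0178), Ndufa10 (0.55 ± 0.12 SE, adjusted p = 0.0190), Uqcrc2 (0.44 ± 0.12 SE, adjusted p = 0.0387) and Atp5b (0.50 ± 0.14 SE, adjusted p = 0.0449) rose and Ndufa4l2 fell (-0.97 ± 0.21 SE, adjusted p = 0.0167), by edgeR's quasi-likelihood test. Ndufs1, Ndufa10, Uqcrc2 and Atp5b are core or accessory subunits of complexes I, III and V. Of the 85 subunits, 30 were higher at an unadjusted p under 0.05, against 13.2% of all genes.

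Several subunits exist as pairs of a widely expressed and a tissue-restricted isoform. Per base of exon, the share of Cox8b in Cox8b plus Cox8a was 49.5%, 67.2%, 63.9% and 43.6% in WT saline, 65.6%, 67.6%, 52.8% and 59.0% in WT AngII, 65.7%, 66.1%, 68.0% and 60.2% in KO saline, and 70.1%, 53.8%, 59.6% and 48.0% in KO AngII. The group means were 56.0 ± 11.3%, 61.3 ± 6.71%, 65.0 ± 3.35% and 57.9 ± 9.44% in that order (SD, n = 4 each), and the groups overlapped. Cox7a1 made up 47.1 ± 14.3% of Cox7a1 plus Cox7a2, 49.3 ± 8.37%, 55.0 ± 6.65% and 41.9 ± 12.8% in WT saline, WT AngII, KO saline and KO AngII. Per base of exon, both muscle and brown fat forms thus took a large part of their pair. Their shares were low in the libraries with low brown adipocyte scores. The size of the shares depends on the exon lengths used, which count all annotated exons of each gene.

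The other restricted forms were minor. The Cox4i2 share of its pair with Cox4i1 ran from 0.988% to 4.34% over the 16 libraries, and the Cox6b2 share of its pair with Cox6b1 from 0.315% to 2.75%. Ndufa4l2 took 3.89% to 23.4% of its pair with Ndufa4, with means of 12.2 ± 6.73%, 14.9 ± 8.45%, 10.3 ± 4.92% and 8.18 ± 2.93% in WT saline, WT AngII, KO saline and KO AngII (SD, n = 4 each). Its share varied with Ndufa4 as well: Ndufa4 itself stood at 146, 547, 266 and 120.4 CPM in the WT saline libraries, 341, 416, 189.6 and 201 CPM in WT AngII, 968, 328, 333 and 267 CPM in KO saline and 488, 237, 238 and 196 CPM in KO AngII. Cox6a2 reached 1.21% of its pair with Cox6a1 in KO saline replicate 3, the library with the skeletal muscle markers, and at most 0.125% elsewhere.

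**Figure D4:**
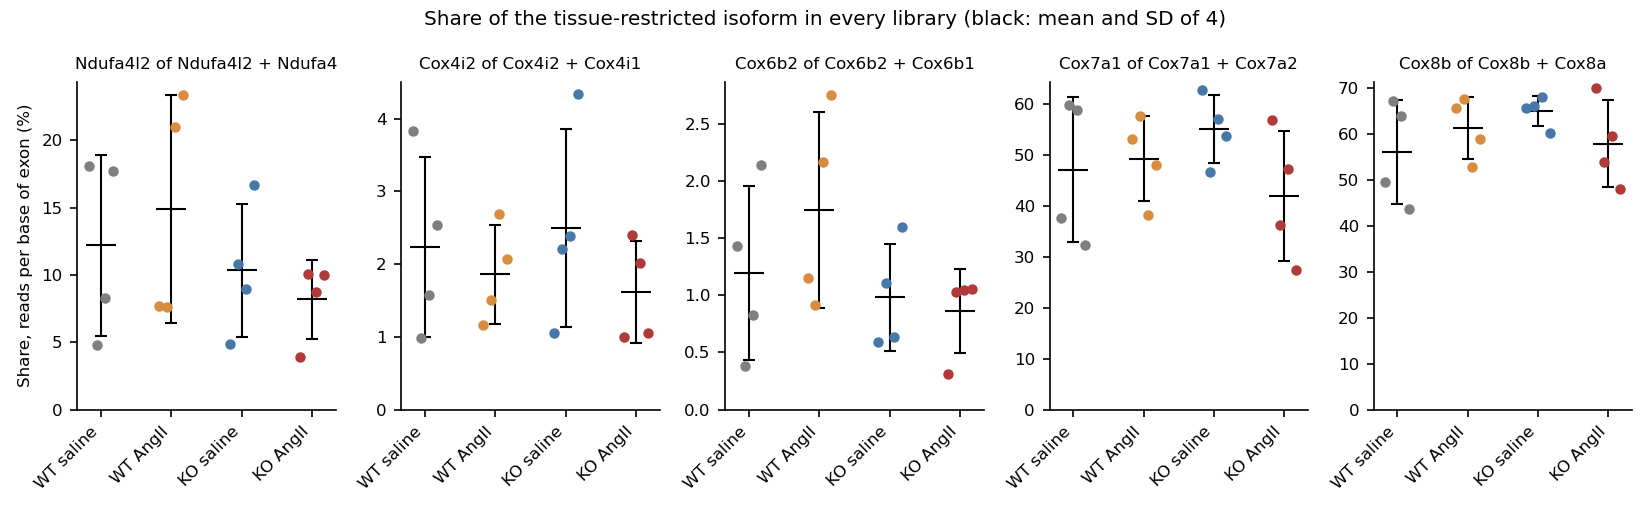
Share of the tissue-restricted isoform in its pair, in percent of reads per base of exon, for each library (points) with the mean and SD of each group (black). Cox8b and Cox7a1 take from 27.5% to 70.1% of their pairs, the other forms at most 23.4%, and the groups overlap in each panel.

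Some subunits have near-identical copies elsewhere in the genome, and reads can be listed under either row. The copies listed were all rows outside the 87, so reads shared between members of the set are not covered. A coding sequence was given in the reference for 83 of the 87. A match of at least 90% identity over at least 50% of the searched sequence found copy rows for 25 of the 87 subunits. In 12 of these 25, more than 5% of the summed reads were listed under copies. The shares were 51.6% for Ndufa12, 28.8% for Atp5l, 25.5% for Atp5g1, 22.8% for Ndufab1, 15.6% for Cox7c, 14.3% for Cox7a2l, 12.8% for Atp5h, 10% for Cox5b, 6.11% for Atp5md, 6.03% for Ndufs5, 5.93% for Atp5g2 and 5.18% for Ndufs3. Levels of these genes are uncertain. The shares do not bound this uncertainty, because the sources used here do not say how reads with several matches were counted.

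Cox7a2l was the subunit whose copy differed by genotype. Cox7a2l encodes the supercomplex factor that links complexes III and IV and is known in mice as a long and a short form, the short one being carried by C57BL/6. The gene lies at chr17:83501918-83517330 (minus strand) and its copy Gm6969, a processed pseudogene, at chr12:24638669-24639010 (minus strand), both in GRCm38. Gm6969 had 17, 22, 24 and 20 reads in WT saline, 28, 31, 11 and 14 reads in WT AngII, 690, 388, 557 and 495 reads in KO saline, and 757, 731, 531 and 612 reads in KO AngII. All 8 KO libraries, including the library labelled KO saline replicate 1, stood far above all 8 WT libraries. Its share of the summed reads was 0.603% to 1.41% in WT and 16.4% to 33.9% in KO. Gm6969 rose in KO against WT by a log2 fold change of 4.86 ± 0.32 SE under saline (adjusted p = 4.82e-07) and 4.78 ± 0.32 SE under AngII (adjusted p = 7.04e-07) in edgeR's quasi-likelihood test. AngII had no called effect on it (0.14 ± 0.32 SE in WT and 0.06 ± 0.26 SE in KO).

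The coding sequence of Cox7a2l (333 bases without the stop codon) and Gm6969 (339 bases) share 332 identical bases, with 1 mismatch, and the copy holds 6 bases after base 213 that the reference gene lacks. Bases 184 to 244 of the coding sequence are shown because they hold this difference, with the letters of the copy that have no partner in capitals. Their placement in the alignment is not unique.
Cox7a2l: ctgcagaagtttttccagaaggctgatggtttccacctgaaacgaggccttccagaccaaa
Gm6969: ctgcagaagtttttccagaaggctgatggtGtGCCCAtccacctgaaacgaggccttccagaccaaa
The count table cannot tell reads from the copy apart from reads of a Cox7a2l allele that carries those 6 bases, and which of them gave the reads was not tested.

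Cox7a2l itself stood at 113, 150.4, 126 and 97.6 CPM in the WT saline libraries, 139, 145, 97.9 and 137 CPM in WT AngII, 228, 97.8, 94.0 and 88.9 CPM in KO saline and 103, 82.5, 76.9 and 93.6 CPM in KO AngII. Its log2 fold change in KO against WT under AngII was -0.54 ± 0.26 SE (adjusted p = 0.302 in edgeR's quasi-likelihood test). With the reads of Gm6969 added it was -0.04 ± 0.24 SE (adjusted p = 0.965). Under saline the values were 0.06 ± 0.26 SE alone and 0.41 ± 0.24 SE (adjusted p = 0.323) with the copy. When copy reads were added to all subunits that have copies, 2.02% of all genes were called in KO against WT under AngII and no call of a subunit changed in any of the 5 comparisons.

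**Figure D5:**
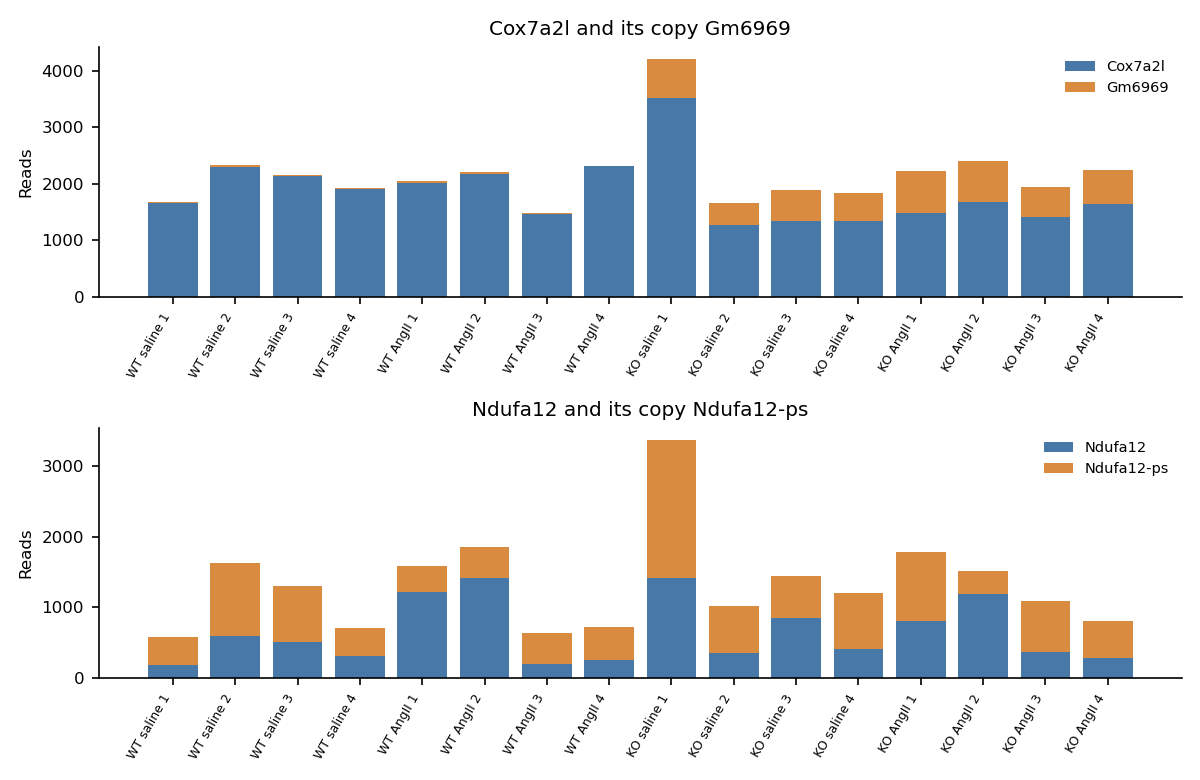
Reads per library (vertical axes, linear) listed under Cox7a2l and its copy Gm6969, and under Ndufa12 and its copy Ndufa12-ps, stacked. The Gm6969 part is 0.603% to 1.41% of the bar in the 8 WT libraries and 16.4% to 33.9% in the 8 KO libraries, while the Ndufa12 part differs between libraries of the same group.

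Ndufa12, an accessory subunit of complex I at chr10:94198720-94221443 (plus strand, GRCm38), shared its reads with the pseudogene Ndufa12-ps (chr5:130188395-130188796, plus strand) in proportions that did not follow the groups. The share listed under Ndufa12 was 31.1%, 36.4%, 38.1% and 44.0% in WT saline, 76.5%, 76.1%, 29.6% and 34.8% in WT AngII, 41.9%, 33.7%, 58.9% and 33.5% in KO saline, and 45.3%, 78.8%, 32.7% and 34.5% in KO AngII. The 3 libraries WT AngII replicates 1 and 2 and KO AngII replicate 2 listed over 76% of the reads under Ndufa12. Its log2 fold change under AngII in WT was 1.10 ± 0.68 SE alone and 0.30 ± 0.47 SE with the copy reads added.

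The partners of these subunits that are encoded in mitochondrial DNA had larger differences in the comparisons that involve KO saline. In KO against WT under saline, 6 of the 13 rose in edgeR's quasi-likelihood test, where 3.01% of all genes were called. Their median log2 fold change was 1.64, against 0.78 for the nuclear subunits. Among the 6 called were mt-Nd6 (1.67 ± 0.35 SE, adjusted p = 0.0232), mt-Nd3 (2.43 ± 0.56 SE, adjusted p = 0.0325), mt-Nd1 (1.64 ± 0.38 SE, adjusted p = 0.0334) and mt-Nd4 (1.53 ± 0.38 SE, adjusted p = 0.0416), all subunits of complex I. The number called ran from 0 to 12 when single libraries were left out. It was 0 without WT saline replicates 1, 3 or 4, KO saline replicate 2 or the library labelled KO saline replicate 1. Without the last of these the median was 1.46 and 12 of 13 were higher at an unadjusted p under 0.05, against 6.04% of all genes. With AngII in the knockout their median was -1.34, with 12 of 13 lower at an unadjusted p under 0.05 (against 7.39% of all genes) and 0 called. Without the library labelled KO saline replicate 1 it was -1.09, with 8 of 13 lower (against 5.30% of all genes). The medians were -0.04 for AngII in wild type and 0.48 for KO against WT under AngII. The ratio of their summed CPM to that of the nuclear subunits was 13.2, 5.64, 8.07 and 9.03 in WT saline, 6.71, 6.81, 10.1 and 7.57 in WT AngII, 8.87, 18.6, 13.1 and 19.8 in KO saline, and 9.51, 12.3, 8.25 and 7.36 in KO AngII. KO saline replicates 2 and 4 had the highest ratios. The library labelled KO saline replicate 1, highest in nuclear subunits, and KO saline replicate 3 had ratios within the WT range. The difference between the sets was not tested.

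Genes that work with the complexes had medians of the same sign as the subunits in the 2 comparisons that share KO saline, and 1 gene of these lists was called. For KO against WT under saline and for AngII in the knockout, the median log2 fold changes were 0.47 and -0.44 for 44 assembly factors, 0.60 and -0.57 for 17 other electron carriers such as cytochrome c and the coenzyme Q enzymes, 0.62 and -0.48 for 18 citric acid cycle genes, and 0.73 and -0.62 for 15 fatty acid oxidation genes. None of these genes was called in any of the 5 comparisons. The 77 mitochondrial ribosomal proteins had medians of 0.49 and -0.47, with 19 higher in the first and 19 lower in the second at an unadjusted p under 0.05 (24.7%, against 10.1% and 7.39% of all genes) and 0 called. The 14 regulators of mitochondrial biogenesis had medians of 0.15 and -0.18 with 0 called. Of 15 glycolysis genes, Slc2a1, the glucose transporter GLUT1, fell in KO against WT under saline (-0.79 ± 0.19 SE, adjusted p = 0.0410 in edgeR's quasi-likelihood test), while the list's median was 0.62. No gene of the list was called in 10 of the 16 fits that leave out 1 library, the fit without KO saline replicate 1 among them. Without the library labelled KO saline replicate 1, the medians for the same 2 comparisons were 0.14 and -0.15 for the assembly factors, 0.22 and -0.16 for the other electron carriers, 0.19 and -0.07 for the citric acid cycle, 0.32 and -0.22 for fatty acid oxidation, 0.33 and -0.07 for glycolysis and -0.05 and -0.03 for the regulators. The mitochondrial ribosomal proteins then had medians of 0.14 and -0.16, with 1 higher and 1 lower in the first comparison and 3 lower in the second at an unadjusted p under 0.05.

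Marker lists of other cell types moved as follows between groups. General adipocyte markers had a median log2 fold change of 0.70 in KO against WT under saline and 0.55 under AngII, with 1 of 10 called higher in the latter. Fibroblast markers had a median of -0.75 in KO against WT under AngII, with 1 of 6 called lower, and 0 called in 12 of the 16 fits that leave out 1 library. Sympathetic and chromaffin markers had 2 of 9 called higher there, with KO AngII replicate 4 the high library and 0 to 9 called when single libraries were left out. Endothelial (7 tested), cardiac muscle (5), skeletal muscle (11) and brown adipocyte (13) markers had 0 called in every comparison by edgeR, although 11 of 11 skeletal muscle markers were higher at an unadjusted p under 0.05 in KO against WT under saline, with KO saline replicate 3 the high library (838 CPM summed, against 5.12 to 30.2 CPM elsewhere). Their part in the values of the subunits was not tested, other than by the score used as a covariate above.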

How the data were processed

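RNA was measured by poly-A RNA sequencing in 16 libraries, 4 in each of 4 groups, with group and number read from each sample's title. The deposited values were raw counts of reads per gene. Build GRCm39 (mm39), featureCounts 1.5.0-p3, HISAT2 2.0.5 and DESeq2 1.20.0 are named in the submitters' processing notes. The sources used here do not give the annotation release or the settings for strand and for reads with several matches. The reference used here is GRCm38, so coordinates are of that build. The 2725 rows without a symbol stayed in library sizes and tests.

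The authors' counts were scaled by TMM and tested two-sided with the quasi-likelihood method of edgeR 4.0.16 under R 4.3.3, fitting 1 mean for each of the 4 groups over the 16 libraries (12 residual degrees of freedom, biological coefficient of variation 35.3%), after edgeR's expression filter, which kept 15984 genes and removed 13711. P-values were adjusted by Benjamini-Hochberg over all genes tested and called under 0.05. They set a difference against the spread between libraries of the same group, estimated over the 4 groups together. The labels call these libraries biological replicates. The script was tested on simulated data. Alternatives were DESeq2 1.42.0, limma 3.58.1 voom with quality weights, relative log expression scaling, other filters, mitochondrial genes left out before scaling, only the groups compared, the replicate number as a block, a brown adipocyte covariate and single libraries left out. Copies were found with BLAST+ 2.17.0. The members, lists and tests were chosen with earlier results of these data known. Named were every called member, the smallest p of each complex, core subunits and isoform pairs.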

Additional observations from a re-analysis of the deposited data

Results flagged for a closer look

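In groups of 4, the gap between the extreme library and its neighbour was set against the group's range by Dixon's test for 26 named subunits, the 5 complexes and the whole set. Of 128 groups examined, 32 (25%) were past the 95% limit. About 5% (1 group in 20) would pass it by chance only if values were normal and groups independent. The subunits were examined as CPM without logs and move together, so 5% is not the chance rate here. Each of the 32 was a high value in the library labelled KO saline replicate 1 or in KO AngII replicate 1.

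In the library labelled KO saline replicate 1, complex I core subunit Ndufv1 stood at 777.3 CPM. Ndufa4, placed in complex I by its symbol, stood at 967.7 CPM. Complex II subunits stood at 824.7 CPM (Sdhb), 595.6 CPM (Sdhc) and 773.9 CPM (Sdhd). Complex III subunits stood at 1146 CPM (Uqcrc1), 1138 CPM (Uqcrfs1) and 1016 CPM (Uqcrq). Complex IV subunits stood at 1866 CPM (Cox4i1), 414.0 CPM (Cox5a), 2018 CPM (Cox6a1), 1046 CPM (Cox6b1), 459.0 CPM (Cox7a1), 483.6 CPM (Cox7a2), 1574 CPM (Cox8a) and 1755 CPM (Cox8b). Complex V subunits stood at 2806 CPM (Atp5a1), 292.4 CPM (Atp5g2), 438.3 CPM (Atp5g3) and 417.8 CPM (Atp5md). The mean log2 CPM there was 7.937 for complex I, 9.837 for complex II, 8.815 for complex IV, 8.796 for complex V and 8.504 for the whole set. The same library had the highest brown adipocyte score (6.98), and its Vamp8 level lay in the wild-type range.

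In KO AngII replicate 1 the high values were 169.1 CPM for Atp5md, 966.8 CPM for Cox4i1, 193.8 CPM for Cox5a, 452.8 CPM for Cox6b1, 217.6 CPM for Cox7a2, 571.9 CPM for Cox8a and 488.3 CPM for Ndufa4. That library had the highest brown adipocyte score of its group (6.36). Whether these values share a source was not tested.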

How the results depend on the processing

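Calls of subunits depended on the tool. AngII in the knockout gave 3 calls with DESeq2 and 1 with limma's voom. KO against WT under saline gave 3 with DESeq2, 10 with limma's voom, 1 without KO saline replicate 1 and KO AngII replicate 4, and 0 to 3 when single libraries were left out. KO against WT under AngII gave 2 with DESeq2, 5 with the brown adipocyte covariate, 0 with no filter, 0 with only the groups compared, 0 with the replicate block, 0 without KO saline replicate 1 and KO AngII replicate 4, and 0 to 1 when single libraries were left out. The interaction gave 2 with DESeq2. The cause was not tested.

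Reversed medians of the subunits were as follows. AngII in wild type gave -0.0059 with mitochondrial genes left out before scaling, -0.0052 with no filter, -0.086 with the covariate, and -0.20 to 0.51 without single libraries. AngII in the knockout gave 0.0557 with the covariate. KO against WT under AngII gave -0.14 with limma's voom and -0.28 to 0.25 without single libraries. The interaction gave 0.15 with the covariate. Among named subunits, Sdhd in wild type gave -0.0319 with the covariate and -0.23 to 0.73 without single libraries. Uqcrq in wild type gave -0.11 to 0.89 and Atp5md -0.0243 to 0.73 without single libraries. Sdhc in KO against WT under AngII gave 0.044 with the covariate, 0.032 without KO saline replicate 1 and KO AngII replicate 4, and -0.54 to 0.02 without single libraries, and Uqcrq there gave 0.0499 with the covariate.

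Replicate numbers did not pair the samples: 24 same-numbered pairs had a mean correlation of deviations of -0.0097, against 0.0034 for 72 others, and 6 of 16 libraries correlated best with their own number. With the block, Ndufa4l2 in KO against WT under AngII had a log2 fold change of -0.91 (adjusted p = 0.0833). The addition of copy reads, and the values of the gene lists without single libraries, were chosen after seeing the data. Cox6b2 (2.24 to 9.69 CPM) and Cox4i2 (2.51 to 13.4 CPM) rest on few reads.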
